A study of Mus musculus with 10 samples.

Results

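The endpoints of osteogenic culture were compared in MC3T3-E1 cells, a preosteoblast line cloned from mouse calvaria: confluent cells at the start of differentiation (day 0) against cells kept for 21 d in osteogenic medium. The members are the 4 libraries that the labels place in these 2 groups, replicates A and B of each, out of 10 libraries at 5 stages (subconfluent, confluent, 24 h, 14 d and 21 d). Confluent cells were in growth medium, αMEM with 10% iFBS. The 21 d cells had been moved after day 0 to a differentiation medium that also held β-glycerophosphate (10 mM) and ascorbic acid (50 µg/ml). Penicillin-streptomycin was in that medium too, and the study lists it for the maintenance medium as well. All libraries come from one subclone (Subclone 4), and no culture kept for 21 d in growth medium was analysed here, so medium, time and density change together in this contrast. Every gene was tested, 20808 after a filter on low counts, with edgeR's quasi-likelihood test and Benjamini-Hochberg adjustment.

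Osteoblasts build bone by secreting a matrix of type I collagen and then mineralizing it. Ascorbic acid is a cofactor of the enzymes that hydroxylate collagen, and β-glycerophosphate is a phosphate source that alkaline phosphatase can cleave. Preosteoblasts proliferate until they are confluent, leave the cell cycle as they lay down matrix, turn on osteocalcin (Bglap) late, and some become osteocytes, the cells buried in bone, which make Dmp1, Mepe and Phex.

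Promoter sequences are shown for 9 genes that stand for the groups described here. They are RefSeq sequences on GRCm38.p6 (mm10), each 100 bases, 5′ to 3′ on the gene's strand, and capitals mark the letters of a searched motif. Bglap and Dmp1 carry the RUNX motif (TGTGGT or its complement), the site of the osteoblast factor Runx2. Bglap is read from the minus strand at chr3:88384517-88384616 and Dmp1 from the plus strand at chr5:104202427-104202526.
Bglap: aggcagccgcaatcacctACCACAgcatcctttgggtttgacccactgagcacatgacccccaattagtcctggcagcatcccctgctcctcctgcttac
Dmp1: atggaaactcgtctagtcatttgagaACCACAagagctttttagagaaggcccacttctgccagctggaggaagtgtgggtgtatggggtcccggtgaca
Cdk1 (minus strand, chr10:69352913-69353012) and Cdc20 (minus strand, chr4:118437344-118437443), a mitotic kinase and an activator of the anaphase-promoting complex, carry CCAAT boxes and the cell cycle motif CHR (TTTGAA).
Cdk1: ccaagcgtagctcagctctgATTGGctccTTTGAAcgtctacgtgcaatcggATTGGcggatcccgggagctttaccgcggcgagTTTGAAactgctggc
Cdc20: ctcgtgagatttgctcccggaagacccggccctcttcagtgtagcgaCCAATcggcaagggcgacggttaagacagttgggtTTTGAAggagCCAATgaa
Hspa5 (plus strand, chr2:34771960-34772059), Pdia6 (plus strand, chr12:17266459-17266558) and Creld2 (plus strand, chr15:88819516-88819615) encode proteins of the endoplasmic reticulum and carry the ER stress element, in which 9 bases of any kind separate a CCAAT box from CCACG.
Hspa5: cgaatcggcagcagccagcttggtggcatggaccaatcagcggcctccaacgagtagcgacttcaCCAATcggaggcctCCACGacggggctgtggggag
Pdia6: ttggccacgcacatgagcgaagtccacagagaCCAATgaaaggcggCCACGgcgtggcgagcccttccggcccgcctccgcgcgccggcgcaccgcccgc
Creld2: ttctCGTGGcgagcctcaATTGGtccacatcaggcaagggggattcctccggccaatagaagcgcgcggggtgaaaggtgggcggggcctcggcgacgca
Ifit1 (plus strand, chr19:34640759-34640858), an interferon-induced antiviral gene, carries the interferon-stimulated response element (ISRE, GAAA repeated after 2 bases of any kind), and Car9 (plus strand, chr4:43506926-43507025), a carbonic anhydrase induced by low oxygen, carries the hypoxia motif ACGTG.
Ifit1: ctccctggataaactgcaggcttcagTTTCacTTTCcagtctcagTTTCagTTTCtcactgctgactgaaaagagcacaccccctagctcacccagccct
Car9: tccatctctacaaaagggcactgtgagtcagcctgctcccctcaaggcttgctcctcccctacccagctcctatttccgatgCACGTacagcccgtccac
All motifs were searched on both strands from 250 bases before to 50 bases after the start of transcription, in the 11703 genes tested that have a promoter in the RefSeq table. A match describes the letters and does not show that a factor was bound.

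The 4 libraries held 49717716 and 162939333 counts in the confluent cells and 51970507 and 119183287 at 21 d, within the range of 44736156 to 162939333 over all 10. Replicates differed by a standard deviation of 0.31 (log2) between the confluent libraries and 0.29 between the 21 d libraries over 16133 genes with counts in every sample. The labels do not say whether A and B were separate cultures, and p-values then measure only the spread between these samples. The index barcodes also differ by stage: a first pair was used up to 24 h and a second pair for 14 d and 21 d, so group and library set cannot be told apart in the endpoint contrast. The steps that stay inside one set, 24 h against confluent and 21 d against 14 d, are therefore given beside it, and each shares 2 libraries with it. The exons of some genes named below, besides those marked where they appear, overlap another gene's, so their reads cannot be fully assigned: Bmp4, Ccnd1, Cebpb, Mmp19, Psmb8, Srebf1, Suv39h2, Tes, Thra and Twist2. Each library is a whole culture, so fewer cells of a type and less RNA per cell cannot be told apart.

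Between confluent cells and 21 d, 4384 of 20808 genes (21.1%) were called, at an adjusted p under 0.05 and more than 2-fold. Of these, 2633 (12.7% of genes tested) were higher at 21 d and 1751 (8.42%) were lower. The rises were larger: 434 of the genes called higher but 75 of those called lower changed more than 16-fold. Low-level genes were more common among the rises. A mean of at least 1 RPKM in either group was reached by 1625 genes called higher (61.7%) and 1536 called lower (87.7%). The genes called higher included 2070 protein-coding genes, 116 lincRNAs and 121 antisense transcripts. The genes called lower included 1175 protein-coding genes and 337 processed pseudogenes, whose reads can come from the parent genes. The successive steps gave 443 calls for 24 h against confluent (2.13%), 1245 for 14 d against 24 h (5.98%) and 826 for 21 d against 14 d (3.97%). In that last step the falls outnumbered the rises, with 509 genes lower (2.45%) and 317 higher (1.52%). The steps that involve 24 h depend on single libraries, since the 24 h replicates differed by a standard deviation of 0.69 (log2). Without 24 h replicate B the first step gave 2383 calls and the second 3065, without confluent replicate A or B the first gave 160 or 187, without 14 d replicate A or B the second gave 707 or 641, and without 21 d replicate A the last gave 541.

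**Figure D1:**
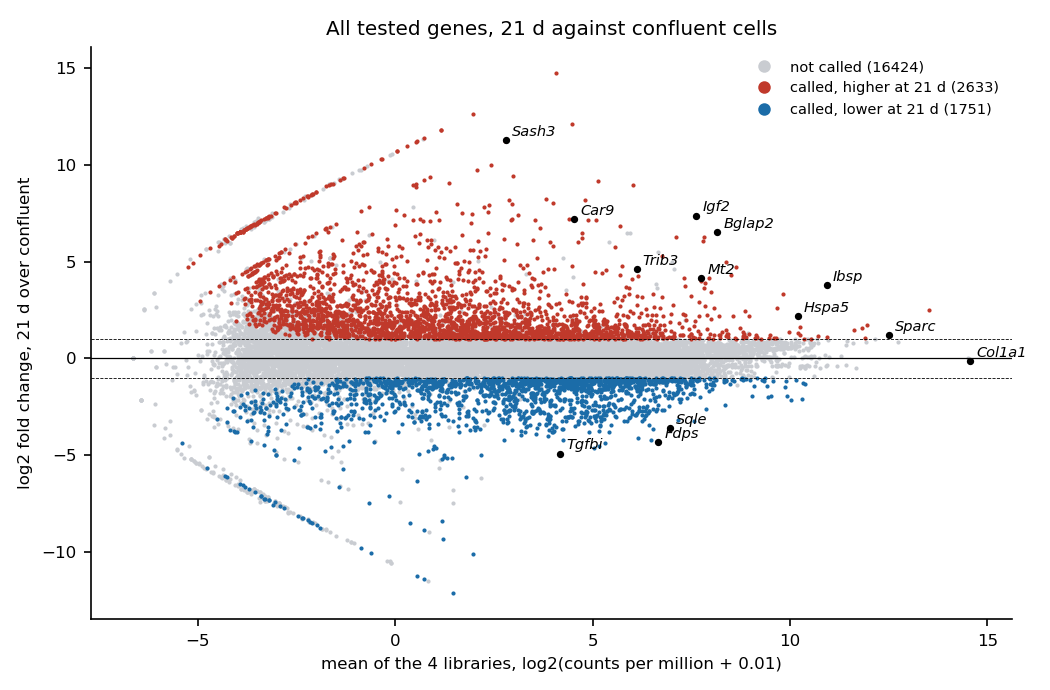
Each point is one of 20808 genes, placed by its mean abundance (log2 CPM) and its log2 fold change of 21 d over confluent cells (n = 2 libraries a group), with called genes coloured. The 2633 genes called higher reach larger fold changes than the 1751 called lower. A smaller share of them has a mean of at least 1 RPKM in either group (61.7% against 87.7%).

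The split between rises and falls depends on the scaling and, with limma, on the value added to RPKM. With TMM scaling 60.1% of the calls were higher, and all genes tested had a median log2 fold change of 0.03. With library size alone 49.7% were higher (median −0.11) and with upper-quartile factors 67.1% (median 0.14). With limma on log2(RPKM + 1) the share was 36.6%, and on log2(RPKM + 0.1) it was 47.7%. The gene groups below are counted in the TMM fit. Their medians should be set against these medians of all genes, and their counts against the 12.7% called higher and 8.42% called lower of all genes tested. The libraries of the groups did not overlap in 79.2% of all genes tested, and in 99.8% and 99.9% of those called higher and lower, so a lack of overlap adds little to a call.

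Bone matrix and mineralization genes rose: 12 of 23 were called higher and none lower, with a median log2 fold change of 1.22. The osteocalcin genes had 2 of the 3 largest changes. Bglap, which encodes this vitamin K-dependent calcium-binding protein (chromosome 3, 88383501 to 88384464 on mm10), had 12.9 and 16.7 RPKM (reads per kilobase of gene length, scaled to library depth) in the confluent libraries and 1087 and 995 RPKM at 21 d (log2 fold change 6.27, standard error 0.62, adjusted p = 0.00022). Its neighbour and near-copy Bglap2 went from 18.1 and 23.3 to 2067 and 1404 RPKM, and the third copy Bglap3 from 2.46 and 2.71 to 70.1 and 60.0 RPKM. Reads may be shared among the copies, so the 3 changes are not separate measurements. Most of that rise was present at 14 d, when Bglap had 1197 and 1034 RPKM, and 21 d differed from 14 d by a log2 of −0.17 (adjusted p = 0.91).

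Acidic phosphoproteins of the matrix that bind mineral also rose. Ibsp, bone sialoprotein, went from 196 and 205 to 2570 and 2509 RPKM (log2 fold change 3.81, standard error 0.25, adjusted p = 3.6e-05). Dmp1, a matrix protein typical of osteocytes, went from 0.886 and 0.925 to 29 and 16.1 RPKM (log2 fold change 4.77, standard error 0.29, adjusted p = 3.1e-05). Mepe, a matrix phosphoglycoprotein, went from 0.0876 and 0.116 to 7.52 and 9.75 RPKM (log2 fold change 6.48, standard error 0.32, adjusted p = 1.5e-05). Spp1, osteopontin, was chosen after its values were seen, for its timing: it had 235 and 216 RPKM in confluent cells, 213 and 208 at 24 h, 284 and 283 at 14 d and 1509 and 968 at 21 d. It was thus nearly level to 14 d and rose in the last step (log2 fold change 2.05, adjusted p = 0.001), as did Dmp1 (1.88, adjusted p = 0.0044).

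Other mineralization genes passed a peak at 14 d. Alpl, the alkaline phosphatase that releases phosphate, had 5.15 and 5.89 RPKM in confluent cells, 24 and 27.4 at 14 d and 10.1 and 9.48 at 21 d. Its endpoint change of 0.97 had an adjusted p of 0.00054 but was just under 2-fold (1.07 without confluent replicate B and 1.01 without 21 d replicate B). Alpl was called with upper-quartile factors and with at least 10 counts required in every sample. The fall from 14 d was called (−1.47, adjusted p = 0.00064). Phospho1, a phosphatase of matrix vesicles, and Ifitm5, a membrane protein of osteoblasts, had the same course, although Phospho1 was chosen after its values were seen and its exons overlap those of Abi3 on the opposite strand. Phospho1 went from 39.3 and 40.3 RPKM through 293 and 276 at 14 d to 60.7 and 49 at 21 d, and Ifitm5 from 8.87 and 11.3 through 152 and 159 to 40.2 and 35. Sparc, osteonectin, was called higher at the endpoints, from 1826 and 1759 to 3782 and 3782 RPKM (log2 fold change 1.22, standard error 0.10, adjusted p = 0.0001), and had 6068 and 5763 at 14 d. Phex, an endopeptidase of phosphate regulation, rose from 0.291 and 0.214 to 2.04 and 2.36 RPKM (log2 fold change 3.28), and Omd, osteomodulin, from 8.39 and 10.2 to 53.4 and 64.4 RPKM (2.80). In the bone matrix list as a whole, 15 of 23 genes were called higher and 1 lower from 24 h to 14 d (4.47% and 1.51% of all genes). From 14 d to 21 d, 2 were called higher and 6 lower (1.52% and 2.45% of all genes). Leaving out any 1 library of 14 d or 21 d left 3 or 4 of those 6 falls called.

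**Figure D2:**
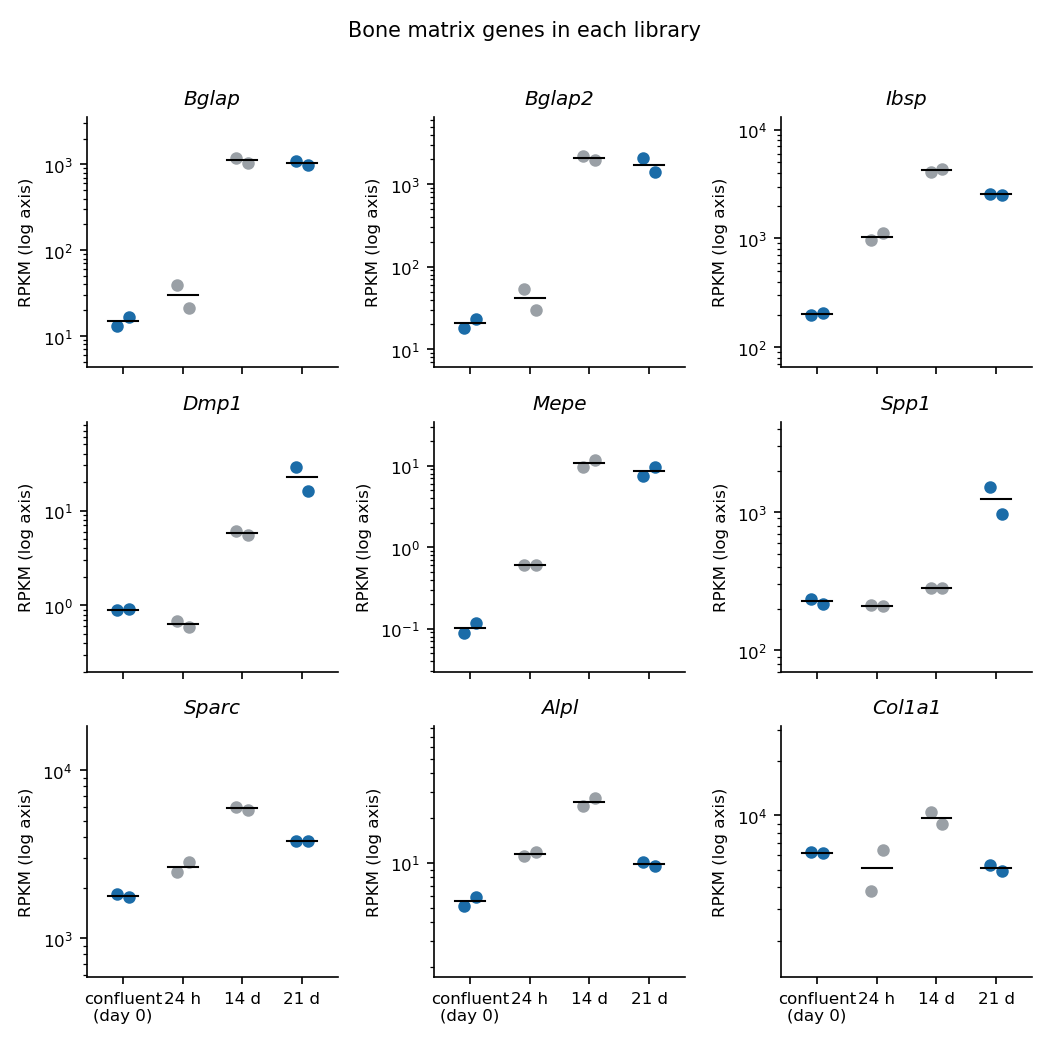
RPKM on a log axis for 9 bone matrix and mineralization genes in each library at 4 stages, confluent to 21 d, with points for replicates A and B and a bar at their mean. Bglap, Bglap2, Ibsp, Dmp1 and Mepe lie higher at 21 d than in confluent cells in both libraries, while Col1a1 lies close to its confluent level and Alpl falls from its 14 d level.

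Among the promoters of the bone matrix list, 8 of 18 (44.4%) held the RUNX motif, against 13.1% of all promoters. Its share was 14.8% among all genes called higher and 11.9% among those called lower. The matches shown above lie from −132 to −127 in Bglap and from −164 to −159 in Dmp1, counted from the start of transcription.

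Type I collagen, the bulk of bone matrix, was not called different at the endpoints. Col1a1 had 6278 and 6152 RPKM in confluent cells and 5287 and 4900 at 21 d (log2 fold change −0.14, standard error 0.21, adjusted p = 0.62), and Col1a2 had 3384 and 3248 and 3086 and 2975 RPKM (0.01, standard error 0.17, adjusted p = 0.96). Both were higher in between, with 10422 and 8996 RPKM for Col1a1 at 14 d. Only 1 of 11 fibrillar collagens was called higher at 21 d, with none lower. In the steps, 5 were called higher from 24 h to 14 d (4.47% of all genes) and 5 lower from 14 d to 21 d (2.45%). The step counts were unsteady, with 2 falls called without any 1 library of the last step, and 2 rises without 14 d replicate A or B. The endpoint call was Col11a2, a chain of type XI collagen, which went from 3.26 and 4.68 to 64.2 and 64.8 RPKM (log2 fold change 4.16, standard error 0.20, adjusted p = 1.3e-05) after 201 and 219 at 14 d.

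Of 19 nonfibrillar collagens tested, 8 were called higher and none lower (median 0.40). Col15a1 and Col18a1, collagens of basement membranes, went from 5.84 and 6.48 to 78.3 and 69.6 RPKM (3.73) and from 5.41 and 5.85 to 29.3 and 30.0 RPKM (2.54). Col22a1, a collagen of tissue junctions, was nearly absent from confluent cells (0.00317 and 0.0209 RPKM) and had 4.52 and 4.16 RPKM at 21 d (log2 fold change 8.24, standard error 0.39, adjusted p = 1.3e-05). Col4a1 and Col4a2, the type IV collagen chains, rose by 2.20 and 2.02, but their exons overlap on opposite strands, and Col4a2 was chosen after its values were seen. Col10a1, the collagen of hypertrophic cartilage, went from 0.0538 and 0.113 to 1.67 and 5.88 RPKM (log2 fold change 5.56, standard error 0.74, adjusted p = 0.00084), with the 21 d libraries differing from each other by more than the other collagens named, and its exons overlap those of Nt5dc1.

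The enzymes that modify collagen split, with 6 of 23 called higher and 2 lower (median 0.13). The prolyl 4-hydroxylase subunits P4ha1 and P4ha2, which need ascorbic acid, rose from 32.3 and 29.7 to 100.4 and 115 RPKM (1.94) and from 12.9 and 12.5 to 47.2 and 57.1 RPKM (2.18). Pcolce2, an enhancer of procollagen processing, fell from 2.42 and 2.31 to 0.619 and 0.715 RPKM (−1.68), as did the procollagen protease Adamts14 (−1.38). Fn1, fibronectin, was the called gene with the most counts and was chosen for that after its values were seen. It had 552 and 493 RPKM in confluent cells and 2816 and 2480 at 21 d (log2 fold change 2.48, standard error 0.31, adjusted p = 0.00065).

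Matrix proteases and their inhibitors rose in 7 of 18 cases and fell in 1 (median 0.71). Mmp13, the collagenase of bone and cartilage, went from 10.5 and 9.72 to 83.8 and 98.1 RPKM (log2 fold change 3.31, standard error 0.15, adjusted p = 1.2e-05). Timp4, a tissue inhibitor of metalloproteinases, went from 0.104 and 0.0525 to 14.7 and 17 RPKM (7.96). Mmp11 and Mmp19 rose by 1.41 and 1.29, and the aggrecanase-like protease Adamts9 fell by 1.28 on the log2 scale. Small leucine-rich proteoglycans, which decorate collagen fibrils, were also divided, with 4 of 11 higher and 1 lower. Prelp rose from 19.5 and 17.7 to 160.2 and 152 RPKM (3.21) and Fmod, fibromodulin, from 529 and 478 to 1018 and 1006 (1.15), while Lum, lumican, fell from 353 and 355 to 142 and 143 RPKM (−1.17).

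Of 22 osteoblast transcription factors, 3 were called higher and 3 lower, with a median of −0.01, beside 12.7% and 8.42% of all genes. Runx2, the master regulator of the lineage, had 26 and 23.8 RPKM in confluent cells and 31.8 and 30.2 at 21 d (log2 fold change 0.46, standard error 0.14, adjusted p = 0.034). Sp7, osterix, had 43.4 and 41.5 and 57.5 and 54 RPKM (log2 fold change 0.54, standard error 0.09, adjusted p = 0.002). Both changes passed the test, as did 42.8% of genes at any size, and neither reached 2-fold. Dlx3, a homeobox factor of late osteoblasts, rose from 0.734 and 1.07 to 6.41 and 6.2 RPKM (2.93), Sox9, better known from cartilage, from 16.5 and 14.4 to 36.1 and 35.1 (1.35), and Tcf7, a partner of β-catenin, from 18 and 20.0 to 45.1 and 39.6 (1.30). Msx2, a homeobox factor of proliferating precursors, fell from 3.17 and 3.42 to 0.968 and 0.942 RPKM (−1.64), and Twist2, which restrains osteoblast differentiation, from 1.52 and 1.35 to 0.224 and 0.372 (−2.07).

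Of the osteocyte list 10 of 15 genes could be tested, and 5 were called higher and none lower (median 1.52). These were Dmp1, Mepe, Phex, Hyou1 and Ackr3. Dmp1, Mepe and Phex are also members of the bone matrix list, so their calls are the same ones counted there. Hyou1 is also a chaperone of the endoplasmic reticulum, and the log2 fold change of Ackr3 was as low as 0.81 under the alternatives. Sost, Fgf23, Reln and Tnfsf11 stayed at 2 counts or fewer in each of the 4 libraries, so no change in these 4 genes was detectable at this depth.

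Histone demethylases, the enzymes the study set out to follow, were called higher in 3 of 23 cases (13.0%, near the 12.7% of all genes) and lower in none (median 0.38). Kdm7a, which removes repressive methyl groups from H3K9 and H3K27, went from 1.19 and 1.04 to 8.9 and 9.06 RPKM (log2 fold change 3.16, standard error 0.22, adjusted p = 4.4e-05). Kdm3a, an H3K9 demethylase induced by hypoxia, went from 8.56 and 7.8 to 19 and 19.1 RPKM (1.37), and Kdm5b, an H3K4 demethylase, from 2.28 and 2.3 to 4.81 and 4.3 (1.13, under 2-fold at 0.99 with library size alone and at 0.75 and 0.96 with limma on RPKM). Kdm1a, which encodes Lsd1, was lower by less than 2-fold, from 18.2 and 17.5 to 11.9 and 11.7 RPKM (log2 fold change −0.46, standard error 0.07, adjusted p = 0.0016). Its paralogue Kdm1b had 2.61 and 2.97 and 3.69 and 4.06 RPKM (0.61, adjusted p = 0.15), with exons that overlap those of Dek on the opposite strand. Kdm4b and Kdm6b had 0.92 (adjusted p = 0.0011) and 0.88 (adjusted p = 0.017), also under 2-fold, although Kdm4b was called at 1.03 with upper-quartile factors.

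Among Lsd1 partners and histone deacetylases, 2 of 20 tested were called higher and none lower. Rcor2, a CoREST scaffold, went from 13.9 and 14.3 to 40.9 and 40.1 RPKM (log2 fold change 1.66, standard error 0.08, adjusted p = 1.3e-05), and Hdac11 from 1.78 and 2.83 to 6.94 and 7.38 (1.77). The Polycomb methyltransferases moved apart. Ezh2, the form of proliferating cells, fell from 18.9 and 19.6 to 5.64 and 6.26 RPKM (log2 fold change −1.55, standard error 0.09, adjusted p = 2.3e-05), and Ezh1, the form of resting cells, rose from 2.64 and 2.57 to 6.04 and 6.08 RPKM (log2 fold change 1.36, standard error 0.15, adjusted p = 0.00036). The histone methyltransferase list had 2 of 26 higher and 4 lower, with the H3K9 methyltransferases Suv39h1 (−1.56) and Suv39h2 (−1.40) among the falls. The DNA methylation list had 1 of 15 higher and 4 lower. Uhrf1, which guides maintenance methylation at replication forks, fell from 64.9 and 59 to 4.25 and 5.93 RPKM (log2 fold change −3.46, standard error 0.17, adjusted p = 1.5e-05) and Dnmt1, the maintenance methyltransferase, from 42.2 and 35.1 to 7.93 and 8.92 (−2.05). Gadd45a, a stress-induced growth arrest gene, rose from 2.7 and 3.36 to 15 and 14.2 RPKM (2.41) and was the call in the other direction.

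Cell cycle genes fell almost without exception: 34 of 35 DNA replication genes and all 30 mitosis genes were called lower, against 8.42% of all genes, with medians of −2.23 and −2.85. Mcm5, a subunit of the replicative helicase, fell from 85 and 75.6 to 5.34 and 6.32 RPKM (log2 fold change −3.64, standard error 0.12, adjusted p = 6.3e-06). Mcm10, which helps to activate the helicase, fell from 7.49 and 6.87 to 0.38 and 0.532 RPKM (−3.82). Rrm2, a subunit of ribonucleotide reductase, fell from 76.7 and 65.3 to 6.05 and 7.68 RPKM (−3.22). The mitotic kinase Plk1 fell from 50.1 and 47.2 to 4.09 and 5.18 RPKM (log2 fold change −3.24, standard error 0.13, adjusted p = 7.6e-06), and the checkpoint kinases Bub1 and Ttk by 3.51 and 3.46 on the log2 scale. Cdk1, Cdc20 and the proliferation marker Mki67, chosen after their values were seen, had log2 fold changes of −2.72, −3.03 and −2.62. The exons of Cdc20 overlap those of Elovl1 on the opposite strand.

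Most of this fall came after 14 d. The mitosis median stood at −0.59 at 24 h and −1.01 at 14 d relative to confluent cells, and 29 of 30 mitosis genes and 25 of 35 replication genes were called lower from 14 d to 21 d (2.45% of all genes), against 1 gene of each list from 24 h to 14 d and none in the first day. Without 24 h replicate B the middle step called 3 mitosis and 5 replication genes. Mcm5, for example, had 45.2 and 52.3 RPKM at 24 h and 27.4 and 25.7 at 14 d, before the 5.34 and 6.32 RPKM of 21 d.

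Of 20 cyclins, CDK inhibitors and E2F-family genes tested, 9 were called lower and none higher. Ccne1, cyclin E1, fell from 13.9 and 12.7 to 0.657 and 0.952 RPKM (log2 fold change −3.88, standard error 0.18, adjusted p = 1.3e-05). E2f8 fell from 7.69 and 6.98 to 0.54 and 0.708 RPKM (−3.40) and E2f1 from 25 and 26.5 to 6.97 and 7.42 (−1.70). Ccnd1, cyclin D1, which responds to growth factors, had 116 and 102 and 94.8 and 90.8 RPKM (−0.09, adjusted p = 0.85), and the inhibitor Cdkn1a had 165 and 190.0 and 225 and 232 (0.51, adjusted p = 0.005), both chosen after their values were seen.

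The promoters of the mitosis list held the CHR motif in 17 of 24 cases (70.8%), against 12.5% of all promoters, and a CCAAT box in 19 of 24 (79.2%), against 39.0%. In the Cdk1 promoter shown above, CCAAT boxes begin at −80 and −48 and CHR motifs at −71 and −15. In that of Cdc20, CCAAT boxes begin at −53 and −8 and the CHR motif at −18. The replication list held an E2F motif more often than all promoters, TTTGGCGC in 18.5% of 27 against 0.906% and TTTCCCGC in 22.2% against 1.95%, while its share with CHR was 14.8%.

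Genes of cholesterol and fatty acid synthesis fell as a group: 25 of 29 tested were called lower and none higher, with a median of −2.85. Fdps, farnesyl diphosphate synthase of the mevalonate pathway, fell from 249 and 249 to 9.72 and 12.5 RPKM (log2 fold change −4.34, standard error 0.24, adjusted p = 2.1e-05). Sqle, squalene epoxidase, fell from 69.3 and 61.9 to 4.32 and 5.44 RPKM (−3.61), and Idi1, an isomerase of the same pathway, from 39.9 and 34.2 to 2.34 and 2.56 (−3.77). Fatty acid genes fell as well, with Fads2, a desaturase, going from 147 and 138 to 6.82 and 8.06 RPKM (−4.11) and Elovl6, an elongase, from 17.9 and 15.1 to 1.57 and 1.58 (−3.24). Hmgcs1, a synthase early in the mevalonate pathway, was chosen after its values were seen and had a log2 fold change of −3.20.

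The fall had 2 stages. From confluent to 24 h, 13 of 29 genes were called lower (0.365% of all genes), no gene was called from 24 h to 14 d, and 23 were called lower from 14 d to 21 d (2.45%). The first count was 5 without confluent replicate A, 9 without confluent replicate B and 16 without 24 h replicate B, whereas the last stayed between 18 and 21. Fdps went from 249 and 249 RPKM to 125 and 88 at 24 h, 72 and 60.5 at 14 d and then 9.72 and 12.5. The master regulators, chosen after their values were seen, differed from each other: Srebf2 fell from 82.4 and 72.8 to 19.9 and 20.6 RPKM (−1.79, adjusted p = 0.00016), while Srebf1 had 19.5 and 19.4 and 15.6 and 16.4 RPKM (−0.14, adjusted p = 0.35). The sterol element, ATCAC and CCAC around 1 base of any kind, was a motif chosen after results were seen. It was found in none of the 20 promoters of the list and in 0.197% of all promoters. At so low a share, 20 promoters cannot show that it is rarer in the list. No promoter sequence was available for Fdps and Sqle, which are not among the 20. A CCAAT box was found in 16 of the 20 (80.0%), against 39.0% of all promoters.

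Genes of protein folding and the unfolded protein response, the program that cells use when proteins misfold in the endoplasmic reticulum, rose at 21 d: 17 of 25 were called higher and none lower, with a median of 1.41. The chaperone Hspa5 (BiP) went from 192 and 194 to 770.1 and 844 RPKM (log2 fold change 2.21, standard error 0.10, adjusted p = 1.2e-05). Sdf2l1, a partner of BiP, went from 13.3 and 17.9 to 96.3 and 116 RPKM (log2 fold change 2.91, standard error 0.21, adjusted p = 5.1e-05). Dnajb9, a co-chaperone, went from 4.52 and 4.39 to 29.8 and 31.1 RPKM (log2 fold change 2.91, standard error 0.13, adjusted p = 1e-05). Genes of the stress branch rose too. Trib3, a pseudokinase induced by the ATF4 pathway, had 3.7 and 4.39 RPKM in confluent cells and 88.4 and 92.3 at 21 d (log2 fold change 4.62, standard error 0.22, adjusted p = 1.3e-05). Ddit3 (CHOP), a transcription factor of prolonged stress, had 18.5 and 18.5 and 158 and 145 RPKM (log2 fold change 3.18, standard error 0.27, adjusted p = 0.00011), with exons that overlap those of Mars on the opposite strand. Atf5 rose from 56.5 and 54.2 to 342 and 319 RPKM (2.72).

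The rise belonged to the last week. No gene of this list was called from confluent to 24 h or from 24 h to 14 d, and 16 of 25 were called higher from 14 d to 21 d (1.52% of all genes). Trib3 had 3.14 and 2.61 RPKM at 24 h and 5.06 and 3.41 at 14 d, and its step from 14 d to 21 d was 4.34 (adjusted p = 0.0002). Hspa5 had 147 and 143 RPKM at 14 d, below its confluent level, and then a step of 2.40 (adjusted p = 0.00016). The calcium-binding chaperone Calr had an endpoint log2 fold change of 1.62. Hsp90b1, Pdia6, Creld2 and the transcription factor Xbp1, chosen after their values were seen, had 1.34, 1.25, 1.56 and 1.45.

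The full ER stress element, a motif chosen after results were seen, was present in 14 of the 11703 promoters (0.12%), and 7 of these 14 belonged to the 21 promoters of the list (33.3%). They were Calr, Canx, Creld2, Dnajc3, Hsp90b1, Hspa5 and Pdia6. It lies from −65 to −47 in Hspa5, from −98 to −80 in Pdia6 and, on the other strand, from −126 to −108 in Creld2. A plain CCAAT box, which the element contains, was in 18 of 21 (85.7%), against 39.0% of all promoters.

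**Figure D3:**
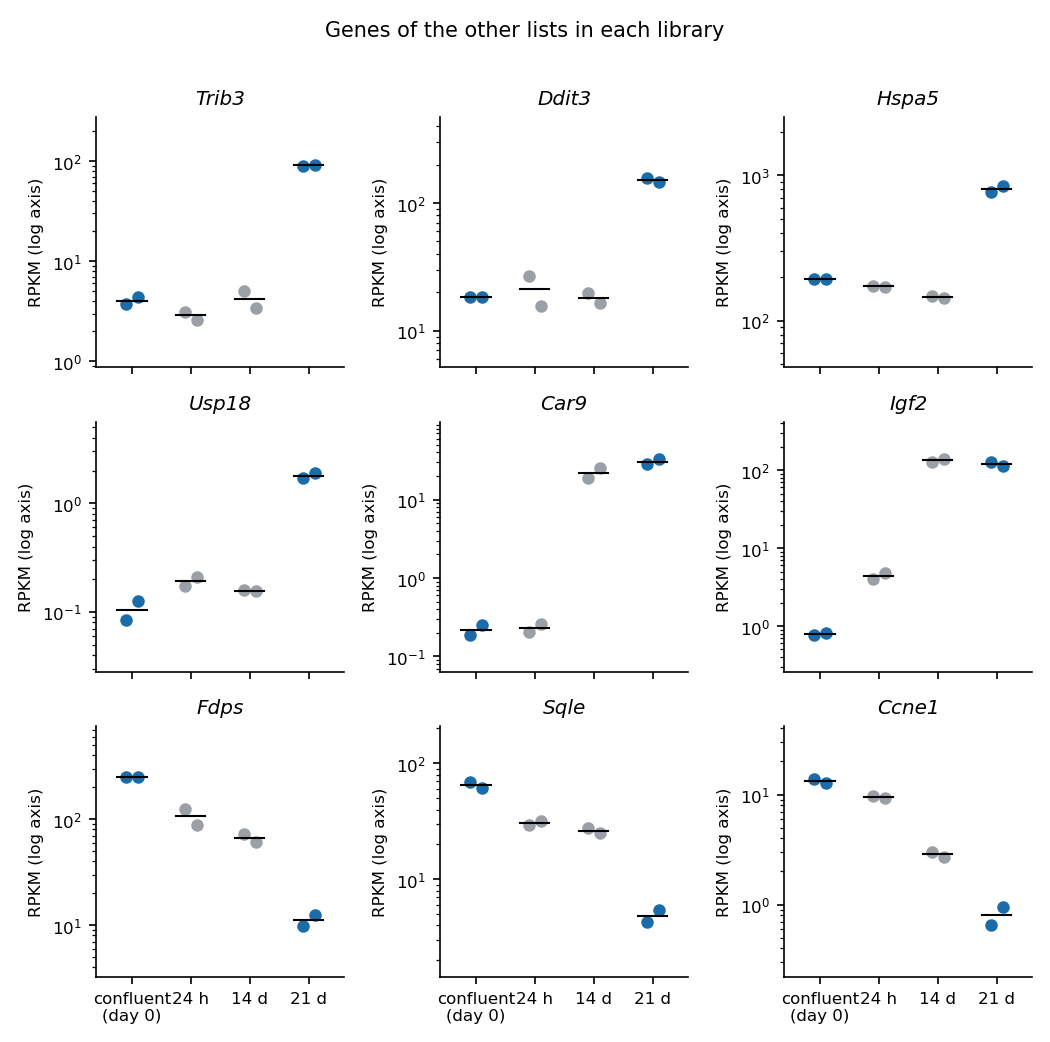
RPKM on a log axis in each library at 4 stages, confluent to 21 d for 9 genes from groups described in the text, with points for replicates and a bar at their mean. Trib3, Ddit3, Hspa5 and Usp18 rise after 14 d, Car9 and Igf2 have risen by 14 d, and Fdps, Sqle and Ccne1 fall.

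Amino acid supply genes, some of which share regulators with that response, did not move as one between the endpoints: 5 of 21 were called higher and 2 lower. From 24 h to 14 d, 1 was called higher and 5 lower (4.47% and 1.51% of all genes). From 14 d to 21 d, 7 were called higher and 1 lower (1.52% and 2.45% of all genes), the step in which the unfolded protein response list rose. Pycr1, a proline synthesis enzyme, rose from 8.12 and 8.01 to 18.2 and 19.1 RPKM (1.35), whereas the cystine transporter Slc7a11 fell from 22.1 and 24.4 to 5.05 and 5.84 (−1.95) and Cth, of cysteine synthesis, by 1.91 on the log2 scale.

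Interferon-stimulated genes were also higher at 21 d, with 17 of 25 tested called higher and none lower (median 1.85). Usp18, a protease that removes ISG15, went from 0.0836 and 0.126 to 1.71 and 1.88 RPKM (log2 fold change 4.18, standard error 0.29, adjusted p = 4.7e-05). Ifit1 went from 0.266 and 0.157 to 1.58 and 1.86 RPKM (log2 fold change 3.19, standard error 0.32, adjusted p = 0.00023), and Oasl2, an oligoadenylate synthetase-like protein, from 0.333 and 0.282 to 2.94 and 3.22 (3.47). All of these were low-abundance transcripts. They rose late: 13 genes of the list were called higher from 14 d to 21 d, 1 from 24 h to 14 d and none in the first day (9 in the last step without any 1 of its libraries), and Usp18 had 0.158 and 0.155 RPKM at 14 d. Of all genes tested, 1.52% were called higher from 14 d to 21 d, 4.47% from 24 h to 14 d and 1.76% in the first day. The ubiquitin-like Isg15, chosen after its values were seen, had an endpoint log2 fold change of 0.84 (adjusted p = 0.0095), under 2-fold. The ISRE was found in 10 of 18 promoters of the list (55.6%), against 3.04% of all promoters and 4.35% of those of genes called higher. In Ifit1 it lies from −104 to −95 and from −85 to −76.

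Antigen presentation changed in fewer members, with 5 of 16 higher and 1 lower. The class I genes H2-K1, H2-D1 and H2-T23 rose, with H2-D1 going from 73.5 and 80.1 to 165 and 164 RPKM (1.24), although class I genes are similar and may share reads. Psmb8, an immunoproteasome subunit, fell from 10.1 and 12.2 to 4.52 and 4.09 RPKM (−1.24). Of 11 complement genes tested, 6 were called higher and none lower (median 1.88). C3, the central component, went from 0.0873 and 0.0458 to 16.9 and 15.1 RPKM (log2 fold change 8.19, standard error 0.33, adjusted p = 8.3e-06), and Cfb, factor B, from 0.45 and 0.379 to 1.38 and 1.79 (2.08). Most of the C3 rise was present at 14 d (10.2 and 10.5 RPKM). Chemokines and cytokines went both ways, 4 of 14 higher and 3 lower: Il33 rose from 0.0102 and 0.00966 to 1.14 and 1.55 RPKM (7.15) and Ccl9 by 2.99, while Ccl2 fell from 4.4 and 5.01 to 1.21 and 1.14 (−1.86) and Cx3cl1 from 21.4 and 20.3 to 9.4 and 8.12 (−1.11). Among 11 tested genes that couple osteoblasts to osteoclasts, 3 were called higher and 1 lower (median −0.16). Of these, Il34, a ligand of the CSF1 receptor, rose from 0.731 and 0.912 to 7.86 and 7.62 RPKM (3.37).

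The hypoxia response rose in 15 of 22 genes and fell in none, with a median of 1.55. P4ha1 and Kdm3a are members of this list too, so their calls are the same ones counted above. Car9 went from 0.189 and 0.251 to 28.1 and 32.8 RPKM (log2 fold change 7.20, standard error 0.24, adjusted p = 6.3e-06). Egln3, a prolyl hydroxylase that marks HIF for degradation, went from 0.0996 and 0.22 to 2.91 and 3.38 RPKM (4.37), and Ankrd37, a HIF target whose exons overlap Ufsp2, from 0.36 and 0.529 to 8.18 and 11.2 (4.55). Hif3a, a HIF family member, had 0 counts in both confluent libraries and 746 at 21 d, at least 339-fold higher against a floor of 3 counts over the group. The list rose before the stress genes, with 11 members called higher from 24 h to 14 d (4.47% of all genes) and 1 from 14 d to 21 d (1.52%). Car9 had 18.6 and 25.2 RPKM at 14 d. Vegfa, the endothelial growth factor, chosen after its values were seen, went instead from 9.62 and 10.8 RPKM at 14 d to 26.3 and 26.9 at 21 d. Hif1a itself, chosen likewise, had 24.5 and 21.5 and 14.6 and 14.4 RPKM (−0.52, adjusted p = 0.081). The motif ACGTG was in 10 of 17 promoters of the list (58.8%), against 24.5% of all and 21.4% of those of genes called higher. It lies from −18 to −14 in Car9.

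Glycolysis genes, many of which are HIF targets, were called higher in 5 of 23 cases and lower in 1 (median 0.14). Pfkl, the liver-type phosphofructokinase, rose from 16.9 and 16.3 to 40.9 and 44.2 RPKM (1.501) and Aldoa, aldolase, from 122 and 119.8 to 247 and 277 (1.26). Pfkfb3, which makes an activator of phosphofructokinase, fell from 1.96 and 1.58 to 0.346 and 0.336 (−2.23). Respiratory chain genes were called lower in 6 of 32 cases and higher in none (median −0.59; 3 cases without confluent replicate B or without 21 d replicate A), with Ndufa4 falling from 611 and 716 to 172 and 183 RPKM (−1.76) and cytochrome c, Cycs, from 46.9 and 49.4 to 16.9 and 16.7 (−1.38). No cytosolic ribosomal protein gene was called among 30, at a median of 0.49.

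**Figure D4:**
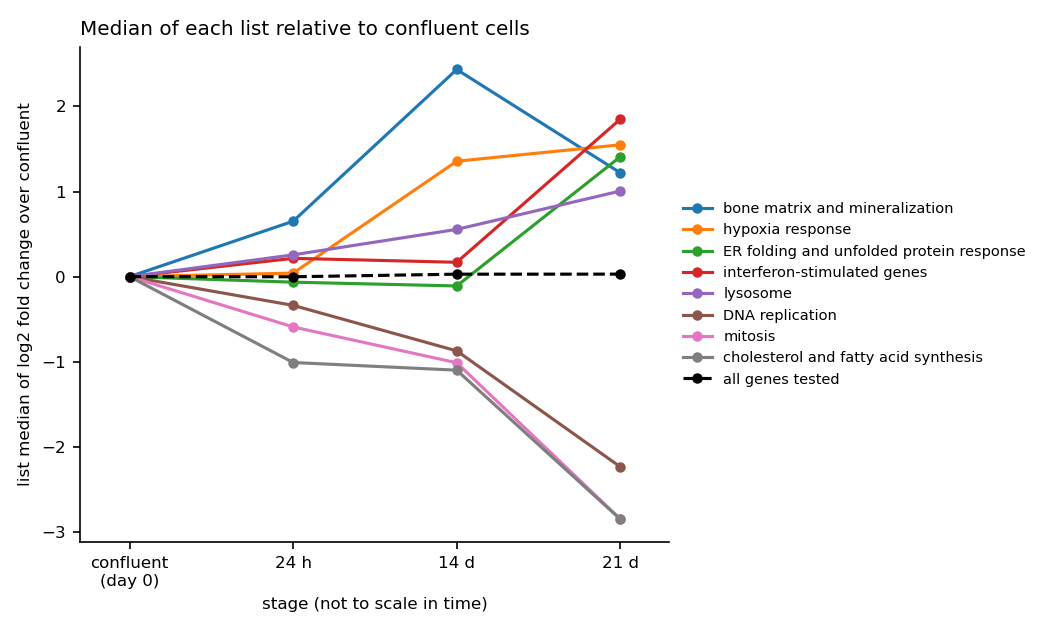
Median log2 fold change against confluent cells for gene lists at 24 h, 14 d and 21 d (n = 2 libraries a stage), with a line for each list. The unfolded protein response and interferon medians rise after 14 d (to 1.41 and 1.85), the hypoxia median has reached 1.36 by 14 d, and the mitosis and cholesterol medians fall to −2.85.

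Of 37 Wnt pathway genes tested, 14 were called higher and 2 lower (median 0.93), with both ligands and secreted inhibitors among the rises. Wnt11, a noncanonical ligand, went from 0.142 and 0.139 to 2.88 and 2.74 RPKM (log2 fold change 4.46, standard error 0.24, adjusted p = 2.1e-05). Rspo1, an R-spondin that amplifies Wnt signals, went from 0.0152 and 0.024 to 1.18 and 0.938 RPKM (5.72). Of the secreted inhibitors, Dkk2 went from 0.0956 and 0.105 to 3.79 and 3.56 RPKM (5.31) and Wif1 from 4.92 and 5.91 to 65.8 and 61.5 (3.69). The 2 lower calls were the ligand Wnt1 (adjusted p = 0.038) and the R-spondin Rspo3 (adjusted p = 0.036), both scarce, with Rspo3 at 17 counts over the confluent libraries and 1 at 21 d. Without any 1 of the 4 libraries the list had 0 or 1 lower calls. Within the first day 7 of the 37 genes were called higher, against 1.76% of all genes (3 without confluent replicate A and 2 without confluent replicate B), and Wif1 already had 22.6 and 26.3 RPKM at 24 h.

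BMP pathway genes were called in both directions, 7 of 26 higher and 6 lower (median −0.08). The ligand Bmp4 fell from 31.1 and 26.3 to 7.03 and 6.01 RPKM (−1.997), while Gdf6 rose from 0.317 and 0.299 to 8.1 and 7.75 (4.83). Antagonists split too: Grem1, gremlin 1, fell by 1.89 on the log2 scale, whereas Chrd, chordin, rose from 1.26 and 1.87 to 11.3 and 11 RPKM (2.97) and Sostdc1 from 0.151 and 0.18 to 4.79 and 4.62 (4.94). Id2, a direct target gene, fell from 25.2 and 23 to 3.16 and 3.45 RPKM (−2.72). In the TGF-β list 7 of 21 were higher and 2 lower. Tgfbi, a matrix protein named for its induction by TGF-β, had one of the largest falls, from 22.5 and 19.1 to 0.483 and 0.742 RPKM (log2 fold change −4.91, standard error 0.22, adjusted p = 1.2e-05), while the coreceptor Tgfbr3 rose from 5.69 and 5.16 to 21.2 and 21.4 (2.12).

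In the IGF pathway 6 of 13 genes tested were called higher and 1 lower (median 0.62), and the ligands moved apart. Igf2 went from 0.767 and 0.819 to 127 and 114 RPKM (log2 fold change 7.38, standard error 0.19, adjusted p = 3.4e-06). Igf1 fell from 4.67 and 4.1 to 0.953 and 1.07 RPKM (log2 fold change −1.97, standard error 0.11, adjusted p = 2.1e-05). Igf2 rose stepwise, with 3.96 and 4.83 RPKM at 24 h and 129 and 139 at 14 d, and its imprinted neighbour H19, a noncoding RNA, went from 2.41 and 2.81 through 127 and 163 at 14 d to 48.6 and 57.1 RPKM at 21 d (4.47). The binding protein Igfbp4 rose from 10.1 and 10.9 to 262 and 239.8 RPKM (log2 fold change 4.72, standard error 0.11, adjusted p = 3.1e-06), and Igfbp6 from 16.1 and 19.1 to 62.6 and 65 (1.999). In the imprinted growth network 2 of 10 genes tested were higher, Igf2 and H19, and 2 lower, Mest (−1.04, under 2-fold at −0.93 with upper-quartile factors and at −0.98 with 10 counts required in every sample, exons overlapping Copg2) and Peg10 (−1.63).

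The FGF list had 6 of 19 genes higher and none lower (2 or 3 higher without any 1 of the 4 libraries), with the feedback inhibitor Spry1 rising from 1.81 and 2.12 to 13.7 and 11.5 RPKM (2.81). The Notch list had 4 of 12 higher (2 without any 1 of the 4 libraries) and 1 lower, the latter being Lfng, a glycosyltransferase that tunes the receptor, from 16.6 and 17.1 to 7.14 and 7.25 RPKM (−1.08). The Hedgehog list had 1 of 11 higher and 2 lower, with the coreceptor Cdon falling from 15.8 and 13.1 to 6.22 and 5.53 (−1.16).

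Lysosomal genes rose in 12 of 24 cases and fell in none, with a median of 1.01, and no single step called any of them. Hexa, a subunit of β-hexosaminidase, went from 75.7 and 79.6 to 205 and 197 RPKM (1.52). Ctsl, cathepsin L, went from 42.2 and 40.6 to 113 and 109.8 RPKM (1.57).

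Contractile cytoskeleton genes fell in 6 of 21 cases and rose in none (median −0.90). Acta2, smooth muscle actin, fell from 1220 and 1161 to 469 and 485 RPKM (log2 fold change −1.18, standard error 0.13, adjusted p = 0.00036), Myl9, a myosin light chain, from 296 and 289 to 94.8 and 105 (−1.41), and Tpm1, tropomyosin, from 416 and 403 to 136 and 132 (−1.47). Of 17 YAP and TEAD targets, 2 were higher and 1, Ankrd1, lower (−1.19). In the adhesion list 7 of 17 were higher and 1 lower. Gja1, connexin 43, fell from 49 and 45.2 to 12.2 and 12.9 RPKM (−1.77), while the channel Panx3 rose from 21.5 and 23.7 to 50.5 and 49.1 (1.28) and the integrin Itga10, a collagen receptor, from 9.98 and 10.5 to 119 and 114 (3.66).

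In the antioxidant list 4 of 24 genes were higher and 4 lower, among the latter Slc7a11, which is also counted in the amino acid list. The metallothioneins Mt1 and Mt2 rose, Mt2 from 65 and 67 to 1078 and 1047 RPKM (4.15), and Mt2 already had 831 and 490.0 at 24 h. Sod3, the extracellular superoxide dismutase, rose from 13.8 and 14.5 to 61.6 and 59 RPKM (2.23), while the NRF2 targets Nqo1 (−1.09) and Txnrd1 (−1.23) fell. Of 16 clock genes tested 5 were higher and none lower, with Per1 going from 6.99 and 6.95 to 32 and 31.8 RPKM (2.34) and the repressor Bhlhe41 from 0.757 and 0.900 to 18.1 and 17.5 (4.56). The time of day at harvest is not given in the sources used here. Immediate early genes had 5 of 20 higher and 1 lower, with Jund and Klf2 among the rises (1.68 and 1.78). Of 16 p53 targets tested 1 was higher, Gdf15 (1.28), and 3 lower, among them Tnfrsf10b (−1.38). Nuclear receptors had 2 of 20 higher, Nr1h3 (3.43) and Thra (1.13, under 2-fold at 0.99 with library size alone and at 0.96 and 0.99 with limma on RPKM), and 1 lower, Esr2 (−2.92, not called with limma on log2(RPKM + 1) at −0.52).

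**Figure D5:**
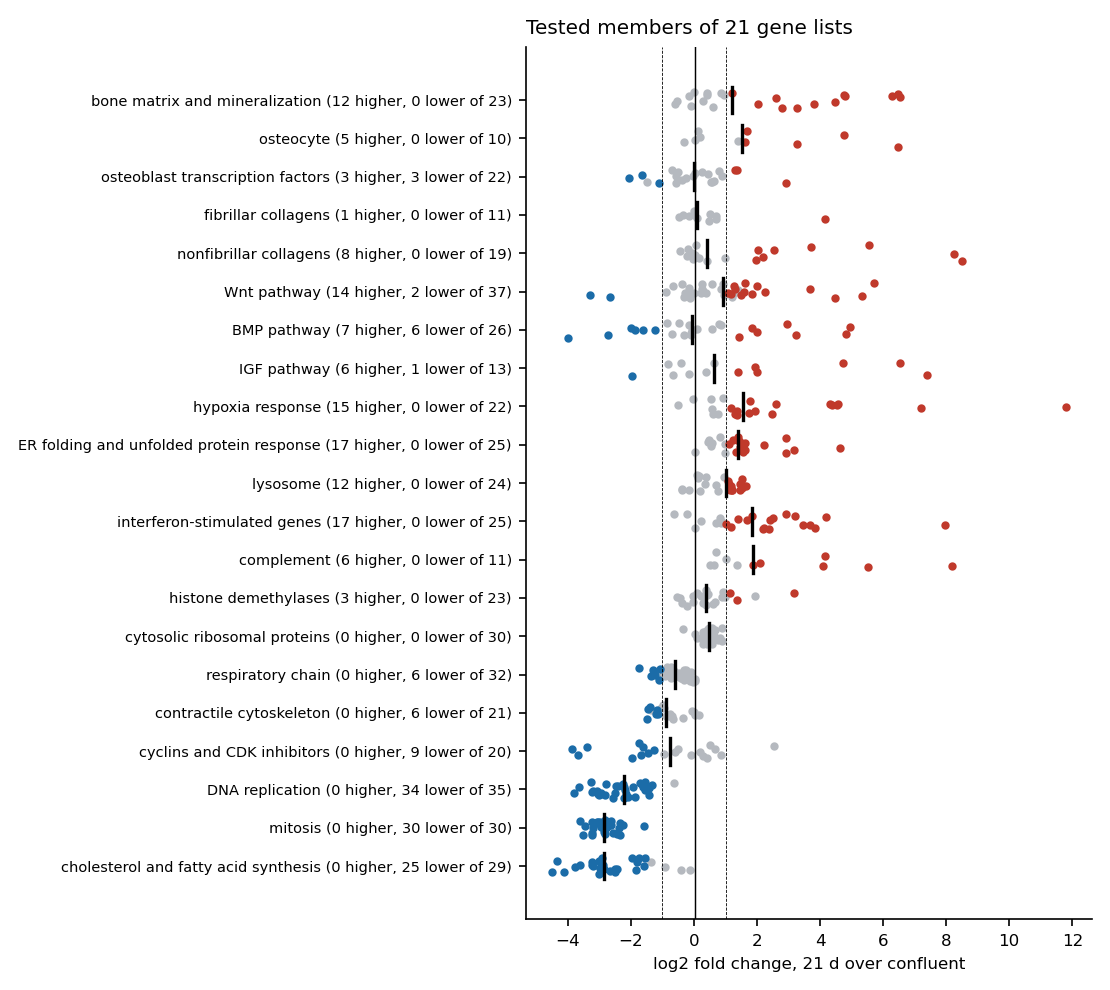
Log2 fold change of 21 d over confluent cells for each tested gene of 21 lists (points, coloured where called) with the list median (bar). All mitosis genes lie below 0, and the osteoblast transcription factors scatter on both sides of it.

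Markers of some other cell types were mostly low. Under 1 RPKM in all 4 libraries were 11 of 16 adipocyte markers and 9 of 10 endothelial markers. The same held for 9 of 10 muscle markers and 9 of 9 erythroid and lymphoid markers. Fewer chondrocyte (5 of 16) and neural and Schwann markers (3 of 8) were that low. Adipoq, Plin1 and Cd36 of adipocytes stayed at 1 count or fewer in each of the 4 libraries. Cebpb and Plin4 were called higher among 8 adipocyte markers tested, and the summed level of that list was 73.1 and 71.8 RPKM in confluent cells and 163 and 151 at 21 d. Plin4 overlaps Hdgfl2. Of 14 chondrocyte markers tested 7 were higher (12.7% of all genes) and 1, Matn3, lower. The rises included Sox9, Col10a1 and Col11a2, described above. The list had sums of 115 and 107 RPKM against 195 and 207, and Acan, aggrecan, had at most 10 counts. Of 5 endothelial markers tested 3 were higher, with Cdh5, Kdr, Cldn5 and Emcn at 1 count or fewer and sums of 4.78 and 4.26 RPKM against 10.3 and 9.32. Of 6 neural and Schwann markers tested 4 were higher, with Sox10 at 0 and sums of 28.7 and 33.1 RPKM against 48.9 and 51.7. Ngfr, 1 of these rises, went from 0.0342 and 0.0162 to 1.44 and 1.44 RPKM (6.10). No macrophage or osteoclast marker was called among 8 tested and no erythroid or lymphoid marker among 3, with Ptprc, Adgre1, Calcr and Dcstamp at 0. The macrophage and osteoclast list was not low as a sum, at 129 and 315 RPKM in confluent cells and 469 and 199 at 21 d. Of its 16 members, 9 stayed under 1 RPKM in all 4 libraries, while Tyrobp had 0 and 179 RPKM in confluent cells and 256 and 0.268 at 21 d. Genes outside the list had the same pattern, such as Nphs1 with 0.00572 and 101 RPKM and then 145 and 0.202. The sums include these Tyrobp values and so do not show macrophage RNA. Of 6 muscle markers tested 1, Acta1, was lower (−1.32). The part these cell types might have in the results was not tested.

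The largest rises among called protein-coding genes with a mean of 5 CPM or more over the 2 groups were not bone genes. Those named next had at most 0.104 RPKM in the confluent libraries, so the sizes of their folds rest on baselines near the floor. Sash3, an adaptor protein known from lymphocytes, had 1 count over the confluent libraries and 2440 at 21 d, a ratio of 3325 with a 95% exact counting interval from 596 to 131371, which covers counting error only. The acute-phase protein Hp, haptoglobin, went from 0.0659 and 0.0554 to 12.8 and 18.8 RPKM (log2 fold change 8.18, standard error 0.50, adjusted p = 2.9e-05), and Aldh1a1, which makes retinoic acid, from 0.0865 and 0.0726 to 13 and 11.3 (log2 fold change 7.42, standard error 0.23, adjusted p = 5.7e-06). Cgn, cingulin of tight junctions, went from 0.00491 and 0.104 to 27.5 and 34.7 RPKM (8.94), Dpep1, a dipeptidase, from 0.0132 and 0.0166 to 9.11 and 11.3 (9.41), and Pi16, a secreted peptidase inhibitor, from 0.00779 and 0.0221 to 3.68 and 4.17 (7.91). Hp, Cgn and Dpep1 had left their confluent level by 24 h, whereas Pi16 had 0.326 and 0.265 RPKM at 14 d. Over all protein-coding genes, 70 of 13964 went from under 0.1 RPKM in both confluent libraries to at least 1 RPKM in both 21 d libraries, and 11 made the opposite move.

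The largest falls in the same class were mostly in cell cycle and lipid synthesis genes, such as Fdps, Fads2 and Ccne1, beside Tgfbi. Cenph, a kinetochore protein, fell from 17.4 and 15.5 to 0.805 and 1.31 RPKM (−3.79), Pclaf, which binds PCNA, from 27.1 and 25.5 to 1.27 and 2.17 (−3.78), and Mybl2, a regulator of mitotic genes, from 10.9 and 9.93 to 0.594 and 0.78 (−3.77). Wdr62, of the mitotic spindle, also entered by its fitted change of −4.62, but its confluent libraries had 3.94 and 33 RPKM and its call (adjusted p = 0.039) was lost without confluent replicate B (−2.38, adjusted p = 0.23), without 21 d replicate A (adjusted p = 0.17) and without 21 d replicate B (adjusted p = 0.16).

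Among protein-coding genes, Col1a1, Col1a2, Mgp, Lgals1 and Fth1 were in the first 10 by RPKM of one group or the other. Mgp, matrix Gla protein, an inhibitor of calcification, had 2567 and 2910 RPKM in confluent cells and 3367 and 3234 at 21 d (0.41, adjusted p = 0.15). Lgals1, galectin 1, had 2370 and 3262 and 1792 and 1864 RPKM (−0.48, adjusted p = 0.13). Sparc was among those first 10 at 21 d and not in confluent cells.

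Some endpoint differences were smaller than those at 14 d. Besides Col11a2 and Ifitm5, the genes called higher at 21 d that fell from 14 d included Sgms2, a sphingomyelin synthase, with 1.76 and 1.65 RPKM in confluent cells, 36.8 and 39.3 at 14 d and 11.6 and 9.72 at 21 d. The serotonin transporter Slc6a4 had 0.282 and 0.301, 12.1 and 12.6 and 4.61 and 3.75 RPKM, and Cdo1, cysteine dioxygenase, had 2.28 and 2.65, 31.9 and 36.7 and 9.48 and 11.8 RPKM. In the opposite sense, Grem1, Steap1, Tes and Plxdc2 were called lower at 21 d but stood above their 14 d level. Plxdc2 was near the 2-fold limit (−1.01) and fell short of it without confluent replicate A (−0.95) or 21 d replicate A (−0.99). Steap1, a metalloreductase, had 13.4 and 12.3 RPKM in confluent cells, 1.99 and 1.37 at 14 d and 4.94 and 4.7 at 21 d, and its last step was 1.44 (adjusted p = 0.0096).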

How the data were processed

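RNA-seq of MC3T3-E1 cells (51 bp paired-end reads) was analysed from 2 tables. The authors deposited counts of reads per Ensembl gene for 40620 genes, and RPKM values that they computed from them. The submitters' processing notes name FastQC, TopHat2 2.0.9, R 3.0.1 and build mm10, and the counting tool, annotation and strand setting are not given in the sources used here. For 21 d replicate B and 14 d replicate A the column in which the authors had merged 2 lanes was used. RPKM was complete for 40602 genes and is used for levels only. No column of unmapped samples was found.

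Symbols, biotypes and gene coordinates came from GENCODE vM21 (GRCm38), with 39632 identifiers matched, and promoters from RefSeq. Without a known strand setting, reads of genes whose exons overlap on opposite strands cannot be told apart. Groups came from the sample labels.

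Counts were filtered with filterByExpr, scaled by TMM and fitted for all 10 samples and 5 stages with edgeR 4.0.16 in R 4.3.3 (glmQLFit, glmQLFTest), with Benjamini-Hochberg adjustment over 20808 genes. A gene was called at an adjusted p under 0.05 and more than 2-fold. A standard error was taken as a gene's log2 fold change over √F. Total counts per sample set the precision, and a group at 0 counts was set to a floor of 3 counts. Ratios of summed counts have exact 95% intervals that cover counting error only. Alternatives were limma 3.58.1 on log2(RPKM + 1) and log2(RPKM + 0.1), DESeq2 1.42.0, other scalings, filters and thresholds, a replicate block, lane sums and leaving out samples. The code was tested on simulated data.

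The comparison, the 51 gene lists and the motifs were chosen with earlier results of these data known, so no list was tested as a set. Named genes are the 12 largest rises and falls among called protein-coding genes at 5 CPM or more without overlap, the 10 highest protein-coding genes by RPKM in each group (the rule as first written set no such limit), up to 6 called members of each list and 4 against its majority, the genes the study names for its RNA-seq, and 5 in each direction that turned back from 14 d. Not every gene that this rule gives is described, and some are not reported here.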

Additional observations from a re-analysis of the deposited data

How the results depend on the processing

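The count of 4384 genes called between the endpoints kept within 1.5 times under the other normalizations, filters, sample sets and DESeq2 (4291, with 2458 higher and 1833 lower). It moved with the threshold, to 8913 (4581 higher, 4332 lower) at any fold change and 1851 (1246 higher, 605 lower) at more than 4-fold, and to 2539 with 930 higher with limma-trend on log2(RPKM + 1), which shrinks changes of low genes. That fit gave 178, 500 and 537 calls in the successive steps from confluent to 24 h, 14 d and 21 d. Leaving out each replicate gave 3734 to 3850 calls, 2113 to 2279 higher and 1546 to 1650 lower, and for the steps 160 to 2383, 641 to 3065 and 541 to 654, where the library left alone in its group was assumed to vary like the other groups.

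The deviations of replicate A from the group mean correlated at 0.099 between confluent and 21 d, and at −0.18 to 0.0995 between other stages. With 2 libraries a stage, these values cannot show whether the replicate letters pair the samples. With the letter as a replicate block, 4204 genes were called (2515 higher, 1689 lower) and 320, 1039 and 731 in the steps.

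Of the named genes, 3073 of the values under alternatives kept their direction and side of the threshold, 33 lost the call, 6 gained it and 13 changed sign. The signs that changed belonged to genes that were not called: Col1a2 (−0.0062 with DESeq2 size factors, −0.13 with library size alone and with limma at either pseudocount, −0.015 without a filter, −0.0011 without the 24 h samples, −0.013 to 0.0396 without a replicate, below 0 without confluent replicate B or 21 d replicate A (−0.011), and −0.0097 with DESeq2), Gapdh (−0.0801 with library size alone and −0.0789 and −0.079 with limma at either pseudocount) and Ccnd1 (0.014 with upper-quartile factors). Of the list counts under alternatives, 31 moved by over 1.5 times. With limma on log2(RPKM + 1) the called members fell to 0 for endothelial markers, 1 each for neural and Schwann markers, FGF and nuclear receptors, 2 each for osteoclast coupling and Notch, 3 each for clock and immediate early genes, 4 each for matrix proteases, adhesion and chemokines, and 5 each for chondrocyte markers and collagen modification, and with limma on log2(RPKM + 0.1) FGF had 3, Notch 2 and the Lsd1 partners 4. With upper-quartile factors 5 histone demethylases and 1 macrophage marker were called. Without 1 replicate osteoclast coupling and FGF had as few as 2 called, Notch and the respiratory chain 3, and ribosomal proteins 1 instead of 0. The single Hedgehog rise and immediate early and osteoclast coupling falls were each lost, and 1 of 2 histone methyltransferase rises, without some replicate. Among the lists, chemokines and cytokines had 7 called with library size alone, without the 24 h samples and with limma on log2(RPKM + 0.1), with more falls than rises, and the Lsd1 partners had 5 called with library size alone, 3 of them lower. Leaving out replicates for the lists and the steps was chosen after the data were seen. The cause of these differences was not tested.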

Other observations

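The Rhox homeobox cluster on chromosome X, reproductive genes that are normally silent in most somatic tissues, was lost between the endpoints. It was chosen after its values were seen. Of 23 Rhox genes tested, 19 were called lower at 21 d and 0 higher, against 8.42% of all genes called lower. Many are near-identical copies among which reads may be shared, so summed values are given. The summed counts were 2048 and 7540 in the confluent libraries and 1 and 7 at 21 d, a ratio of 880 after scaling for library size (95% exact counting interval 446 to 2038). The summed RPKM was 64.9 and 67.9 in confluent cells, 9.74 and 19.1 at 24 h, 7.67 and 2.08 at 14 d and 0.0128 and 0.0948 at 21 d, while the subconfluent libraries differed from each other (50.3 and 7.69). Of the 11 protein-coding genes that went from at least 1 RPKM to under 0.1 RPKM, 10 belonged to this cluster and the other was Myl10.

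Some transcripts often used as references moved between the endpoints, and were chosen after their values were seen. Actb, β-actin, had 1923 and 1904 CPM (counts scaled to library depth) in confluent cells and 766 and 766 at 21 d (log2 fold change −1.32, adjusted p = 0.00051 in edgeR), and it was lower under every scaling tried (−1.47 to −1.21). Ppia fell by 1.14 on the log2 scale, and by 0.99 without confluent replicate B, which is under 2-fold. Gapdh had 613 and 637 CPM and 629 and 678 (0.06, adjusted p = 0.69), and its sign turned with library size alone (−0.08).

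A keratin of stressed epithelium was detected in these mesenchymal cultures and was chosen after its values were seen. Krt6b had 0 counts in both confluent libraries and 1365 at 21 d, at least 620-fold higher against a floor of 3 counts over the group. Its close copy Krt6a had 2 counts and 1592, a ratio of 1085 (counting interval 299.8 to 8964).

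A set of genes was present in one replicate and nearly absent from the other. At 5 CPM or more in one library and over 16-fold apart, there were 47 such genes in the confluent pair and 90 in the 21 d pair, 113 in all, of which 6 were called between the endpoints. Tyrobp had 0 and 179 RPKM in confluent cells and 256 and 0.268 at 21 d, and Aplp1 had 0 and 143 and then 205 and 0.147. Hcst, Kirrel2, Nfkbid, Nphs1 and Nphs1os were likewise high only in confluent replicate B and 21 d replicate A of these 4 libraries. The cause was not tested. The macrophage marker list, which holds Tyrobp, summed to 129 and 315 RPKM before differentiation and to 469 and 199 RPKM after 21 d.

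The pseudogenes Gm29216 and Gm13340 were among the most abundant features and were chosen for that after their values were seen. Gm29216 had 5988 and 5866 RPKM in confluent cells and 17410 and 17871 at 21 d (1.72, adjusted p = 0.00047), and Gm13340 rose by 1.57 on the log2 scale.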
